A study of Mus musculus with 25 samples.

Results

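Metallothionein RNA was followed in 25 RNA-seq libraries of sorted brain cells through the 3 metallothionein genes Mt1, Mt2 and Mt3, out of 36528 gene identifiers counted. The genes were taken by name across the 4 groups of the study, and the family was selected on its counts in these libraries, which were already known. Their own levels and fold changes are therefore a description. Where the number of members past a threshold is printed, it stands beside the share of all genes and nothing is read from it. The groups were 5 libraries of P301S astrocytes, 6 of non-Tg astrocytes, 6 of P301S neurons and 8 of non-Tg neurons, all from mice aged 6 months. P301S mice were hMAPT-P301S transgenic, carrying human tau with the P301S mutation, and non-Tg mice were their non-transgenic littermates. Neurons were sorted for NeuN and astrocytes for Gfap. The sources used here name neither the promoter of the transgene nor how many animals went into a library. The RNA of Xist and of Y-linked genes was counted in every library. Neuron and astrocyte libraries are not tied to animals and were taken as independent.

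Metallothioneins are small, cysteine-rich proteins that bind zinc and copper in thiolate clusters and buffer the free metal of the cell. Mt1 and Mt2 are made in many tissues and, in the brain, mainly in astrocytes, where their transcription is raised by metals through the zinc-sensing factor MTF-1, by glucocorticoids and by injury. Mt3, first known as growth inhibitory factor, is the brain-enriched member and responds little to metals.

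The genes lie side by side on the forward strand of chromosome 8 (GRCm38.p6, RefSeq). Mt3 spans chr8:94152607-94154148, Mt2 chr8:94172618-94173567 and Mt1 chr8:94178883-94180327, and each has 3 exons in its longest GENCODE transcript. A relative, Mt4, known from stratified epithelium, lies at chr8:94137204-94139031 and had 0 counts in all 25 libraries. The 250 bases before 1 RefSeq start of each gene are shown because the members differ there in how often they hold the core that MTF-1 recognises. Capitals mark the metal response element core, TGCACNC or TGCGCNC on either strand, where N is any base.
Mt1, chr8:94178839-94179088, forward strand: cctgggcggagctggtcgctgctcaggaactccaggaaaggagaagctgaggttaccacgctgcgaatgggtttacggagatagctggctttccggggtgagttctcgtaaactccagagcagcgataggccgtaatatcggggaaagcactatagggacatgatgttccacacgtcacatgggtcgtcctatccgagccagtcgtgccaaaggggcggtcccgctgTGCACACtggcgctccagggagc
Mt2, chr8:94172368-94172617, forward strand: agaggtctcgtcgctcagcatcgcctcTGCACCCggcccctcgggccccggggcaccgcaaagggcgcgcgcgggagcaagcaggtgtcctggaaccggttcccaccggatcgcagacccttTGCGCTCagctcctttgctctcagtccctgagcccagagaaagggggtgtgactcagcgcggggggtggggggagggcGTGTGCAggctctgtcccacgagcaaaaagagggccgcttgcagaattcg
Mt3, chr8:94152357-94152606, forward strand: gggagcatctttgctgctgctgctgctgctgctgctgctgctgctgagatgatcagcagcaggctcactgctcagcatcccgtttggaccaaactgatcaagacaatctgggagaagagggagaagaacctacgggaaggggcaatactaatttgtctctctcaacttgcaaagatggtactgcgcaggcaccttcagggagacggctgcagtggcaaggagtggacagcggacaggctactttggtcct
The promoter window searched ran 300 bases, from 250 before to 50 after the start. In it Mt2 held 4 such cores, 1 of them after the start. Mt1 held 3, of which 2 lay after the start, and Mt3 held 1, also after the start. Among 27025 RefSeq promoters of the same length, 25.6% held at least 1 core, 2.00% at least 3 and 0.503% at least 4. An antioxidant element core (TGACNNNGC, either strand, no overlap with the marked cores) was found in the Mt2 window, at 79 to 71 bases before the start, and in 12.5% of all promoters. A STAT site (TTCNNNGAA) was not found in these windows and occurred in 8.47% of all promoters. Annotated starts differ between transcripts of each of the 3 genes. The start used for the Mt1 window is at 94179089, while the RefSeq span of the gene opens at 94178883, so most of the printed Mt1 bases lie inside that span. The GENCODE transcripts of Mt1 begin between 94179082 and 94179241. Those of Mt2 begin at 94172664 and 94172860, against the start at 94172618 used here. Those of Mt3 begin at 94152607, the start used, and at 94152746. What each window holds, core counts included, therefore depends on the start chosen.

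Libraries held 1245964 to 4453555 counts, so that 3 counts in a library correspond to 0.674 to 2.41 CPM (counts in every 1000000 of the library, with TMM scaling where levels are given). The summed level of 8 astrocyte markers ran from 11676 to 24256 CPM in P301S astrocytes and from 13559 to 22421 CPM in non-Tg astrocytes, against 298 to 546 CPM in P301S neurons and 217 to 537 CPM in non-Tg neurons. P301S astrocyte libraries differed from non-Tg ones in more than the genotype. At a depth of 1000000 counts they held 11939 to 16382 detected genes against 15040 to 17845. Mitochondrially encoded genes took 3.61 to 11.4% of their counts against 2.31 to 5.66%. Before TMM scaling, Xist stood at 18.4 to 109 CPM in P301S astrocytes against 7.65 to 38.7 CPM in non-Tg ones. For Y-linked Uty the ranges were 13.5 to 60.6 against 30.6 to 111 CPM, and for Ddx3y 40.5 to 61.1 against 25.9 to 76.8 CPM. Kdm5d ran from 33.2 to 93.5 against 61.8 to 137 CPM, and Eif2s3y from 15.8 to 79.5 against 55.7 to 93.8 CPM. P301S astrocyte library 4 had the fewest detected genes and the highest mitochondrial share, and library 3 had 144 CPM of oligodendrocyte precursor markers, against at most 16.4 CPM in any other astrocyte library. Results that use P301S astrocytes are also given without libraries 3 and 4 where the value or the call moved.

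Mt1 and Mt2 were higher in P301S astrocytes than in non-Tg astrocytes, about 4-fold by group mean, and Mt2 separated the groups completely. Mt2 stood at 119, 459, 179, 275 and 229 CPM in P301S astrocytes 1 to 5, against 96.2, 69.0, 61.6, 41.9, 65.0 and 34.8 CPM in non-Tg astrocytes 1 to 6. Every P301S library was above the highest non-Tg library. The means were 252 ± 129 CPM (SD, n = 5) and 61.4 ± 21.8 CPM (n = 6), a ratio of 4.10 and a fitted log2 fold change of 2.02 (SE 0.35).

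Mt1, the other metal-inducible member, stood at 93.0, 170, 305, 249 and 63.2 CPM in P301S astrocytes, against 76.7, 46.4, 54.8, 57.0, 27.2 and 25.9 CPM in non-Tg astrocytes. The groups overlapped, since P301S library 5 lay below non-Tg library 1, and 4 of the 5 P301S libraries were above every non-Tg library. The means were 176 ± 102 CPM (n = 5) and 48.0 ± 19.4 CPM (n = 6), a ratio of 3.67 and a log2 fold change of 1.86 (SE 0.41).

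The pair did not rank the P301S libraries alike. Mt1 was highest in library 3 and Mt2 in library 2, and library 5 had the lowest Mt1 level but the median Mt2 level. Without libraries 3 and 4 the mean of Mt1 in P301S astrocytes was 109 ± 55.3 CPM (n = 3) and its log2 fold change 1.17, while Mt2 averaged 269 ± 174 CPM with a log2 fold change of 2.11. With the number of detected genes as a covariate the log2 fold changes were 1.43 for Mt1 and 1.96 for Mt2, and with a covariate for sex marker genes 1.36 and 2.37.

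Mt3 was high in 1 library. It stood at 9.75, 4.05, 67.1, 3.74 and 4.44 CPM in P301S astrocytes, against 2.57, 3.77, 2.63, 5.85, 6.36 and 1.33 CPM in non-Tg astrocytes. Outside library 3 the groups ran together, and 3 of the 4 remaining P301S libraries lay within the non-Tg range. The means were 17.8 ± 27.7 CPM (n = 5) and 3.75 ± 1.99 CPM (n = 6), a ratio of 4.75, while the ratio of the medians was 1.39. The log2 fold change was 2.22 (SE 0.85) with all libraries and 0.55 without P301S library 3. That library was also the one with 144 CPM of oligodendrocyte precursor markers, of which Pdgfra stood at 58.6 CPM, against 1.11 to 4.73 CPM in the other P301S astrocyte libraries. Among P301S astrocytes, library 3 was also the highest for oligodendrocyte (1275 CPM), microglial (170 CPM) and mural cell (120 CPM) markers. For endothelial (0.737 CPM) and choroid plexus (18.8 CPM) markers it was the lowest. The part of RNA of any of these cell types in the Mt3 level was not tested.

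Of the 3 members, 2 (Mt1 and Mt2) passed an adjusted p under 0.05 in edgeR's quasi-likelihood test, where 0.544% of 12130 genes did, and 1 (Mt2) had groups that did not overlap, as had 2.14% of genes. Because the family was chosen with this contrast in view, nothing is read from these counts. The adjusted p-values below describe how the calls depend on the fit. They are no test of the members, and the alternatives reuse the same libraries. The Mt1 call (edgeR adjusted p = 0.0393) was lost in 12 of 22 alternatives. The adjusted p was 0.0812 in limma voom, 0.451 with the sex marker covariate, 0.997 with the number of detected genes and 0.186 without P301S astrocytes 3 and 4. It was lost in 8 of the 11 fits that left out 1 library, at 0.0988 without P301S library 3, 0.0597 without P301S library 4 and up to 0.111 without non-Tg library 6, each of the 6 non-Tg libraries included. The Mt2 call (0.00671) was lost in 1 of 22, with the number of detected genes, at 0.966. With the number of detected genes as a covariate 0 genes passed, and without P301S astrocytes 3 and 4 there were 42. The median log2 fold change of all genes tested was 0.13.

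**Figure D1:**
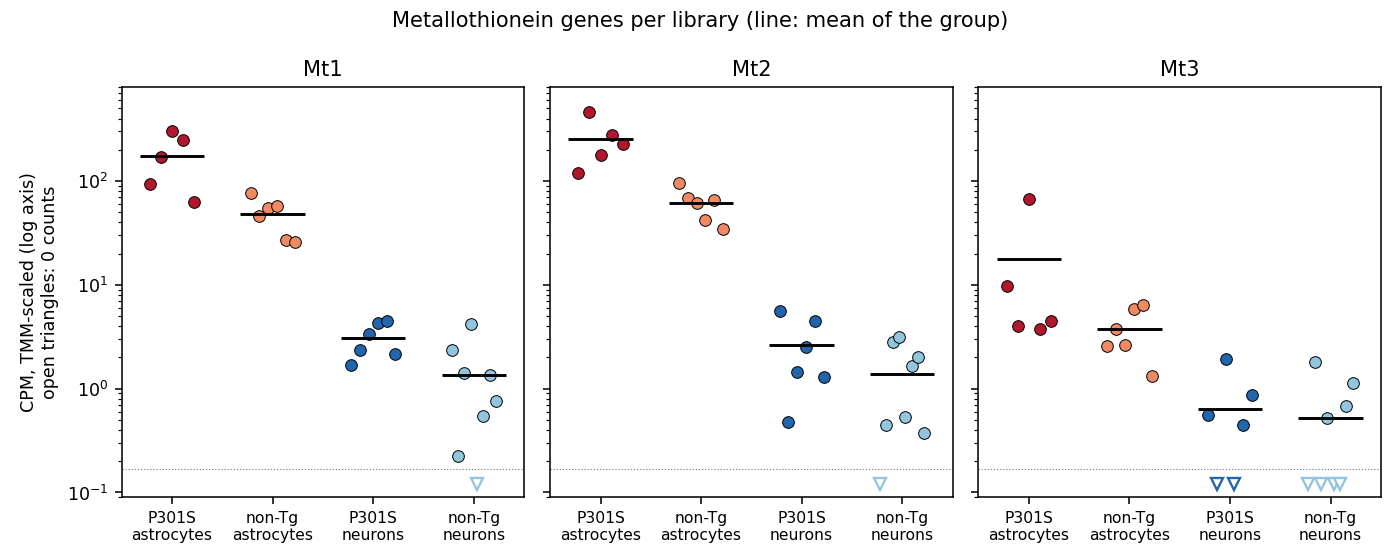
CPM of Mt1, Mt2 and Mt3 on a log axis, with 1 point per library, a line at the mean of each group and open triangles for libraries with 0 counts. Mt2 is at 119 to 459 CPM in P301S astrocytes and 34.8 to 96.2 CPM in non-Tg astrocytes, and P301S astrocyte library 3 stands apart at 67.1 CPM of Mt3.

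Markers of other cell types were set beside these levels. Endothelial markers summed to 0.737 to 25.5 CPM in P301S astrocytes and 0.289 to 30.8 CPM in non-Tg astrocytes. Of the 6 endothelial markers only 1, the tight-junction gene Cldn5, was at 0 in all P301S astrocyte libraries. Ependymal markers summed to 6.13, 0, 15.1, 0 and 22.6 CPM in P301S astrocytes 1 to 5 and to 2.02 to 35.6 CPM in non-Tg astrocytes. Mural cell markers summed to 37.4 to 120 CPM against 61.3 to 125 CPM. Oligodendrocyte markers were at 375 to 1275 CPM in P301S and 180 to 512 CPM in non-Tg astrocytes, and microglial markers at 62.3 to 170 CPM against 29.8 to 79.4 CPM. The part of RNA of any of these cell types in the metallothionein levels was not tested. In bulk RNA of sorted cells, a higher level in every cell and more cells that express the gene cannot be told apart. Gfap, for which the astrocytes were sorted, itself averaged 943 CPM in P301S and 200 CPM in non-Tg astrocytes. Whether the sort took the same kinds of astrocytes in both genotypes was not tested.

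Levels of different genes were compared per length with the authors' size-factor-adjusted RPKM. The 3 genes summed to 117 ± 47.7 RPKM in P301S astrocytes (n = 5) and 29.2 ± 9.20 RPKM in non-Tg astrocytes (n = 6). The lowest P301S sum was 56.9 RPKM in library 1 and the highest non-Tg sum 44.0 RPKM, also in library 1. By mean RPKM among 36528 identifiers, Mt2 ranked 36 in P301S and 144 in non-Tg astrocytes, Mt1 ranked 67 and 313, and Mt3 ranked 1045 and 5041. Without libraries 3 and 4 the sum in P301S astrocytes was 103 ± 61.7 RPKM (n = 3), and Mt1 ranked 107 and Mt3 3616, while Mt2 ranked 28.

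Mt2 took the largest share of that sum in 4 of 5 P301S and 6 of 6 non-Tg astrocyte libraries, on average 63.6 ± 17.5% in P301S libraries and 61.1 ± 8.10% in non-Tg. Mt1 took 31.8 ± 12.8% in P301S and 34.8 ± 8.15% in non-Tg, and Mt3 took 4.60 ± 5.93% and 4.06 ± 2.33%. Differences in these mean shares between genotypes were smaller than the SD between libraries of 1 group. Without P301S libraries 3 and 4 this no longer held for Mt2, at 73.4 ± 11.5% in P301S (n = 3), nor for Mt1, at 24.1 ± 9.35%. The ratio of Mt2 to Mt1 spread more among P301S libraries, at 1.75, 3.68, 0.802, 1.51 and 4.96 in libraries 1 to 5, than among non-Tg libraries, at 1.72, 2.03, 1.54, 1.01, 3.27 and 1.84. With the union of each gene's GENCODE exons as its length, the mean ratio was 3.94 in P301S and 2.95 in non-Tg astrocytes. The lengths behind the deposited RPKM gave 2.54 ± 1.72 and 1.90 ± 0.758. For Mt1 the union, 1246 bases, covers the whole GENCODE span, introns of its longest transcript included. For Mt2 the union, 588 bases, is shorter than the span. The size of the Mt2 excess therefore rests on the gene model. It also rests on the libraries, since without libraries 3 and 4 the ratio averaged 3.46 ± 1.62 in P301S astrocytes by the deposited RPKM.

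**Figure D2:**
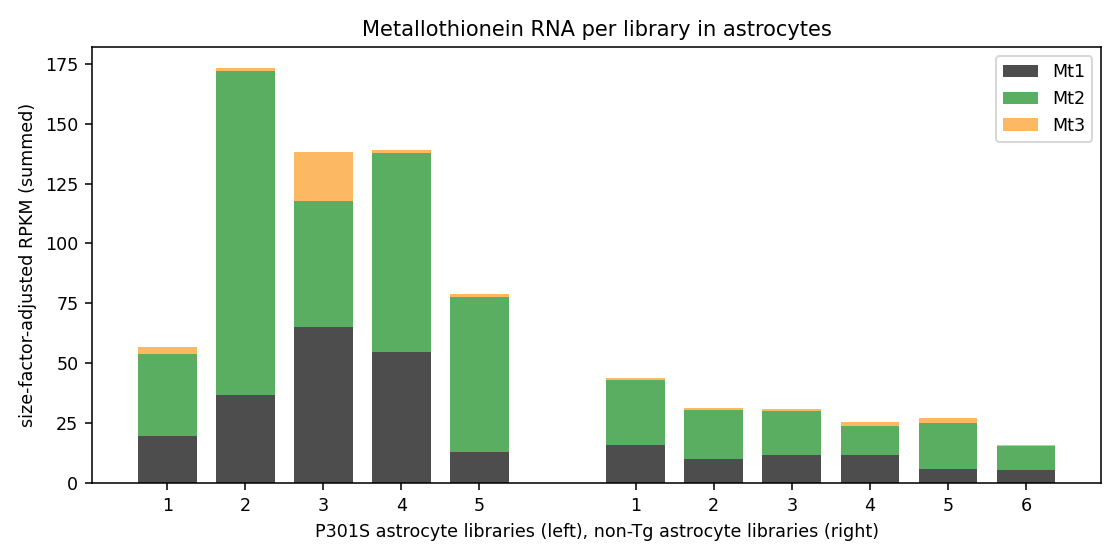
Size-factor-adjusted RPKM of Mt1, Mt2 and Mt3 stacked per astrocyte library, with the 5 P301S libraries on the left and the 6 non-Tg libraries on the right. The stacks reach 56.9 to 173 RPKM in P301S and 15.9 to 44.0 RPKM in non-Tg astrocytes. Mt3 has its largest share in P301S library 3, at 14.7%, and the next largest in non-Tg library 5, at 7.18%.

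**Figure D3:**
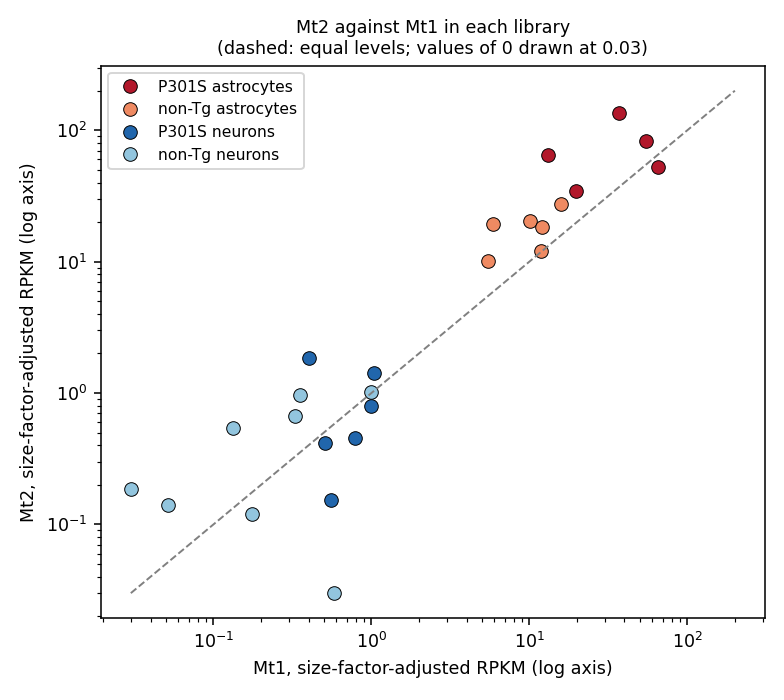
Mt2 against Mt1 in size-factor-adjusted RPKM, 1 point per library on log axes, with a dashed line at equal levels and values of 0 drawn at 0.03. Of the astrocyte libraries, P301S library 3 alone lies below the line, at a ratio of 0.802.

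In neurons all 3 genes were close to the limit of detection. Mt1 had 3, 5, 7, 12, 10 and 5 counts in P301S neurons, against 5, 1, 2, 8, 0, 1, 2 and 4 counts in non-Tg neurons. Mt2 had 10, 1, 3, 7, 10 and 3 counts in P301S neurons and 0, 2, 4, 6, 1, 3, 3 and 2 in non-Tg neurons. Mt3 had 1, 0, 4, 0, 1 and 2 counts in P301S neurons and 0, 8, 0, 1, 0, 0, 1 and 6 in non-Tg neurons. Many of these libraries were at or below 3 counts, and the groups overlapped for each gene.

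Mt1 averaged 3.05 ± 1.17 CPM in P301S neurons (n = 6) and 1.36 ± 1.38 CPM in non-Tg neurons (n = 8), a ratio of 2.25. Mt2 averaged 2.63 ± 2.00 CPM and 1.38 ± 1.21 CPM, a ratio of 1.91, and Mt3 0.631 ± 0.715 CPM and 0.516 ± 0.666 CPM, a ratio of 1.22. None of the 3 passed the filter on low counts, so none was fitted, and 0.00913% of 10951 genes were called for genotype, while 0.21% had groups that did not overlap. All 6 P301S neuron libraries were above the non-Tg mean of Mt1. P301S neuron libraries also carried more astrocyte marker RNA, with a median summed level of 451 CPM against 302 CPM in non-Tg neurons, and its part in the Mt1 difference was not tested. Non-Tg neuron libraries 5 and 8 have sample identifiers in another range, and without them the non-Tg means were 1.69 ± 1.45 CPM for Mt1, 1.69 ± 1.26 CPM for Mt2 and 0.50 ± 0.70 CPM for Mt3 (n = 6).

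The levels of Mt1 and Mt2 were ordered P301S astrocytes, non-Tg astrocytes, P301S neurons and non-Tg neurons. Between non-Tg astrocytes and P301S neurons no library overlapped for either gene, while the neighbouring neuron groups overlapped for both, as did the astrocyte groups for Mt1. For Mt3 the order of the means was the same, but neighbouring groups overlapped at every step, non-Tg astrocytes and P301S neurons included, where the lowest astrocyte library had 1.33 CPM and the highest neuron library 1.92 CPM.

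Astrocytes held far more Mt1 and Mt2 than neurons in both genotypes. In P301S the ratio of mean CPM in astrocytes to that in neurons was 57.7 for Mt1 and 96.0 for Mt2, and in non-Tg it was 35.3 and 44.6. The log2 fold changes were 5.81 (SE 0.52) and 6.59 (SE 0.53) in P301S, and 5.22 (SE 0.48) and 5.68 (SE 0.48) in non-Tg. Mt3 did not pass the filter of this fit, and its ratio of means was 28.2 in P301S, where the ratio of medians was 8.84, and 7.26 in non-Tg. Both fitted members were past the threshold in each genotype, against 52.3% of 14197 genes in P301S and 46.9% in non-Tg, and groups that did not overlap were seen for 3 of 3 members in P301S and 2 of 3 in non-Tg, against 29.7% and 31.2% of genes. The family was chosen with these counts in view too, so they are no test of the difference.

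The genotype effect in astrocytes minus that in neurons was 0.59 (SE 0.75) on the log2 scale for Mt1 and 0.91 (SE 0.75) for Mt2. Neither was past the threshold, which 0.394% of genes were, and nothing is read from this. A wide range of differences lies within these errors, as the neuron counts are few.

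The neuron level relative to the astrocyte level was also set beside that of astrocyte marker genes. Neurons held 1.73% of the astrocyte level of Mt1 and 1.04% of that of Mt2 in P301S, within the range of 8 astrocyte markers, 0.847 to 3.12% with a median of 1.66%. In non-Tg the values were 2.83% for Mt1, just above the marker range of 0.521 to 2.66% (median 1.08%), and 2.24% for Mt2, within it. Only Aldh1l1, at 2.66%, stood above Mt2 there, and the next marker, Slc1a2, was at 2.08%. Mt3 stood at 3.54% in P301S and 13.8% in non-Tg, above the markers in each genotype, from 8 counts over 6 P301S neuron libraries and 16 counts over 8 non-Tg neuron libraries. Without P301S astrocytes 3 and 4 the P301S values were 2.81% for Mt1 and 0.976% for Mt2, within a marker range of 0.967 to 3.03%, and 10.4% for Mt3.

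**Figure D4:**
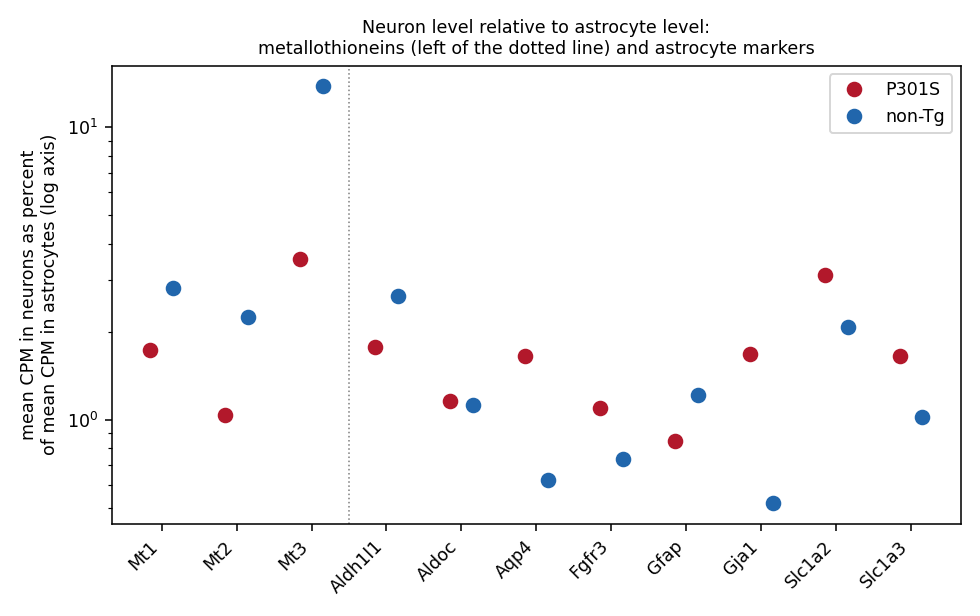
Mean CPM in neurons as a percentage of mean CPM in astrocytes, on a log axis, for the 3 metallothionein genes and 8 astrocyte markers in P301S and non-Tg. Mt1 and Mt2 lie among or next to the markers, at their upper end in non-Tg, and Mt3 in non-Tg is the highest point at 13.8%.

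No tested gene of the zinc list, which leaves out the metallothionein genes, was called between the astrocyte genotypes in the edgeR fit. Of 22 zinc genes (the transporter families Slc30a and Slc39a and Mtf1), 18 were tested in astrocytes. The median log2 fold change was 0.05, against 0.13 for all genes. At an unadjusted p under 0.05 there were 4 such genes, where 13.4% of all genes tested were. DESeq2 called 2 and limma voom 1, where of all 12130 genes they called 441 and 119. Mtf1, which encodes the zinc-sensing factor of the metallothionein promoters, averaged 75.5 ± 76.0 CPM in P301S astrocytes and 37.3 ± 15.8 CPM in non-Tg astrocytes (log2 fold change 1.0, SE 0.61, edgeR adjusted p = 0.481). Its P301S libraries stood at 45.1, 135, 8.11, 177 and 12.9 CPM, wider apart than the non-Tg range of 15.9 to 60.6 CPM. In the same libraries, 1 to 5, Mt1 stood at 93.0, 170, 305, 249 and 63.2 CPM. Mt2 stood at 119, 459, 179, 275 and 229 CPM. A relation of either gene to Mtf1 within these 5 libraries was not tested.

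Slc30a1, the zinc exporter that MTF-1 also controls, averaged 26.0 ± 25.3 CPM in P301S and 27.8 ± 11.3 CPM in non-Tg astrocytes (log2 fold change -0.12, SE 0.64). Slc30a10, a manganese exporter of the zinc transporter family, had the smallest p of the list, at 76.6 ± 33.2 CPM in P301S and 170 ± 39.0 CPM in non-Tg astrocytes (log2 fold change -1.17, SE 0.32, edgeR adjusted p = 0.109), and it passed in DESeq2. Slc39a14, an importer of zinc and iron that was chosen after its values were seen, averaged 111 ± 43.3 CPM in P301S and 43.0 ± 27.8 CPM in non-Tg astrocytes (log2 fold change 1.36, SE 0.44, edgeR adjusted p = 0.165). It passed in DESeq2 and in limma voom. Slc30a3, the transporter that loads zinc into synaptic vesicles, was below the filter in astrocytes, at 0.205 ± 0.327 CPM in P301S and 0.379 ± 0.528 CPM in non-Tg.

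Copper genes gave no call either, with 8 of 12 tested and a median of 0.51. At an unadjusted p under 0.05 there were 2, and DESeq2 and limma voom called none. Atp7a, a copper-exporting ATPase, averaged 57.6 ± 21.9 CPM in P301S and 107 ± 31.4 CPM in non-Tg astrocytes (log2 fold change -0.90, SE 0.36, edgeR adjusted p = 0.266).

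Signals known to act on metallothionein genes were covered by further lists, chosen with earlier results of these data known. Of all 12130 genes tested in astrocytes, edgeR called 0.544%, DESeq2 called 441 and limma voom 119. An unadjusted p under 0.05 was reached by 13.4%, and groups did not overlap for 2.14%. Of the genes of the STAT3 pathway, through which interleukin-6 type cytokines act, 8 of 14 were tested, and 2 rose in P301S astrocytes while none fell. The median log2 fold change was 0.66. At an unadjusted p under 0.05 there were 5, and DESeq2 and limma voom called 2 each. Osmr, the receptor of oncostatin M, stood at 362, 279, 152, 360 and 311 CPM in P301S astrocytes, against 37.9, 66.8, 58.4, 46.8, 149 and 88.5 CPM in non-Tg astrocytes (log2 fold change 1.96, SE 0.34, edgeR adjusted p = 0.00691, higher than the non-Tg mean in 5 of 5 libraries). The groups lay apart by a narrow gap between P301S library 3 and non-Tg library 5. Serpina3n, a secreted protease inhibitor of reactive astrocytes, stood at 290, 426, 273, 243 and 338 CPM in P301S astrocytes, against 12.5, 40.2, 21.1, 23.4, 71.1 and 13.3 CPM in non-Tg astrocytes (log2 fold change 3.36, SE 0.41, edgeR adjusted p = 0.000152). With the number of detected genes as a covariate neither passed, with adjusted p = 0.502 for Osmr and 0.0563 for Serpina3n, and each passed under the other 21 of 22 alternatives. The higher oligodendrocyte and microglial marker levels of P301S astrocyte libraries, given above, stand beside these differences too.

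Of 15 glucocorticoid-responsive genes 13 were tested and none was called by edgeR, with a median of 0.47, 3 genes at an unadjusted p under 0.05, 1 call by DESeq2 and none by limma voom. Plin4, a lipid droplet coat gene, was the nearest and the one DESeq2 called, at 45.9 ± 22.7 CPM in P301S and 10.2 ± 6.38 CPM in non-Tg astrocytes, with groups that did not overlap (log2 fold change 2.15, SE 0.56, edgeR adjusted p = 0.0806). Of 18 NRF2 (oxidative stress) genes 11 were tested and none was called, with a median of 0.43, 4 genes at an unadjusted p under 0.05, 2 calls by DESeq2 and none by limma voom. Slc7a11, the cystine importer that feeds glutathione synthesis, averaged 170 ± 32.6 CPM in P301S and 308 ± 62.7 CPM in non-Tg astrocytes, with groups that did not overlap (log2 fold change -0.87, SE 0.24, edgeR adjusted p = 0.109). Groups did not overlap for 2.14% of all genes tested.

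Of 12 hypoxia genes 6 were tested and none was called by any of edgeR, DESeq2 and limma voom, with a median of 0.03 and 1 gene at an unadjusted p under 0.05. That gene was Hif1a, the oxygen-regulated factor, at 28.9 ± 7.94 CPM in P301S and 62.6 ± 23.6 CPM in non-Tg astrocytes (log2 fold change -1.13, edgeR adjusted p = 0.23). The 15 annotated genes within 250 kb of the metallothionein cluster include Mt4. Several of them, such as Gm39226 and Rpl10-ps5, were not among the identifiers counted. Of the 15, 5 were tested and none was called, with a median of -0.27 and none at an unadjusted p under 0.05 or in the other tools. Herpud1, an endoplasmic reticulum stress gene, was the nearest at a log2 fold change of -1.14 (SE 0.74, edgeR adjusted p = 0.515).

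Without P301S astrocytes 3 and 4 Osmr and Serpina3n were again the called genes of these lists, where 42 of 13688 genes were called. Osmr averaged 317 ± 41.9 CPM in the 3 remaining P301S libraries (edgeR adjusted p = 0.00879) and Serpina3n 351 ± 68.9 CPM (edgeR adjusted p = 0.00111). The median log2 fold change was 0.08 for zinc, 0.17 for copper, 0.61 for STAT3, 0.43 for glucocorticoid, 0.25 for NRF2, -0.12 for hypoxia and -0.47 for the neighbouring genes, against 0.05 for all genes. The log2 fold change of Slc30a1 was 0.29 without these libraries, opposite in sign to that with all. That of Slc30a10 was -1.50 with an edgeR adjusted p of 0.0513. Mtf1 averaged 64.3 ± 63.2 CPM, Slc39a14 125 ± 47.6 CPM, Slc7a11 166 ± 38.4 CPM, Hif1a 29.1 ± 11.2 CPM and Atp7a 71.1 ± 13.9 CPM in the 3 libraries, and the log2 fold change of Plin4 was 2.27.

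**Figure D5:**
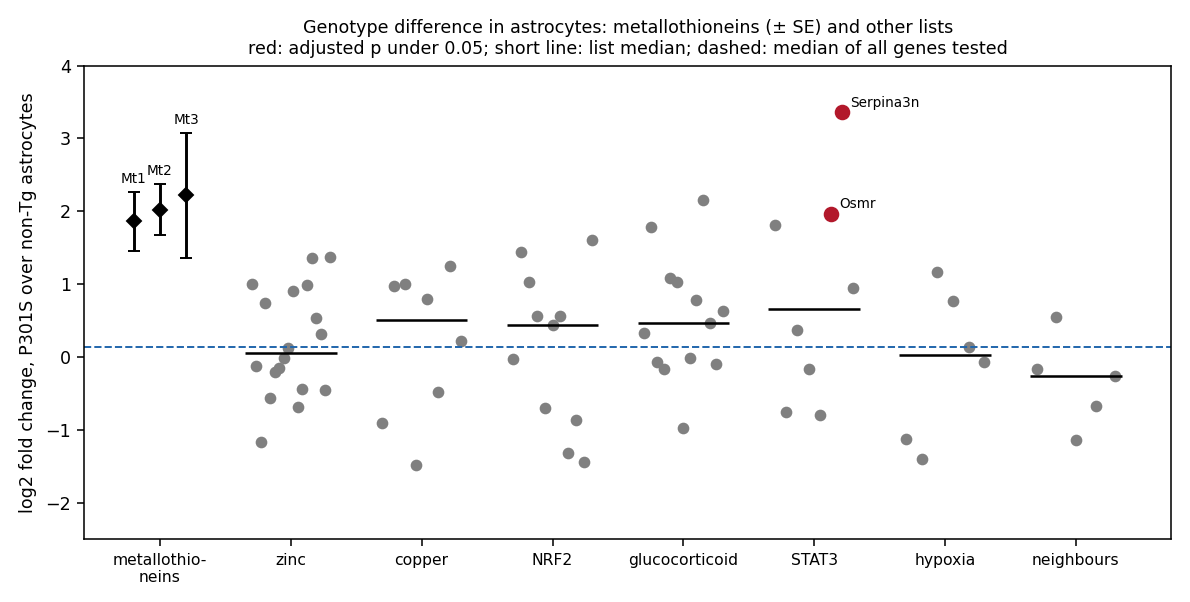
Fitted log2 fold changes, P301S over non-Tg astrocytes, of Mt1, Mt2 and Mt3 (with SE) and of the tested genes of 7 lists, with calls in red, a short line at each list's median and a dashed line at the median of all genes, 0.13. Only Osmr (1.96) and Serpina3n (3.36) are called among the listed genes.

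In neurons none of the 55 tested genes of these lists was called for genotype by edgeR, DESeq2 or limma voom, and 1 had an unadjusted p under 0.05, where 7.73% of all genes tested did. That gene was Gclm, a subunit of the enzyme that starts glutathione synthesis, at 5.46 ± 1.83 CPM in P301S and 8.62 ± 2.56 CPM in non-Tg neurons (edgeR adjusted p = 0.59). When the genotype effects of both cell types were set against each other, 1 of 76 listed genes was called, Serpina3n, at 3.43 (SE 0.49, edgeR adjusted p = 0.000739). Of all genes 0.394% were called. Without P301S astrocytes 3 and 4 the called genes of the lists were Serpina3n, Plin4 and Slc30a10, where 266 of 14732 genes were called.

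Between cell types each of the lists held called genes. In P301S, 9 of 21 tested zinc genes were higher and 1 lower in astrocytes than in neurons, and in non-Tg 7 were higher and 1 lower. Slc39a12, a zinc importer, was among the higher, at 164 ± 121 CPM in P301S astrocytes and 4.13 ± 1.69 CPM in P301S neurons (log2 fold change 5.31, edgeR adjusted p = 8.34e-12), and the synaptic transporter gene Slc30a3 was the lower, at 0.205 ± 0.327 CPM and 9.82 ± 2.33 CPM (log2 fold change -5.60, edgeR adjusted p = 1.36e-06). Copper genes numbered 5 higher and 0 lower of 8 tested in each genotype. The counts of higher and lower genes in P301S were 9 and 0 of 15 for glucocorticoid, 6 and 1 of 12 for NRF2, 6 and 1 of 9 for STAT3 and 3 and 1 of 6 for hypoxia genes. In non-Tg they were 9 and 2, 5 and 0, 5 and 1, and 4 and 0 for the same lists. Without P301S astrocytes 3 and 4 the hypoxia list held 5 higher genes in P301S and 1 lower, of 6 tested. The shares of all libraries stand against 29.0% higher and 23.2% lower among all genes in P301S, and 25.1% and 21.8% in non-Tg.

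The neighbours of the cluster did not share 1 direction between cell types. Bbs2, a gene of the ciliary BBSome, was higher in astrocytes, with a log2 fold change of 2.18 in P301S and 1.74 in non-Tg. Nup93, a nuclear pore gene, was lower, at -3.14 in P301S and -2.41 in non-Tg, and Ogfod1 was lower at -1.03 in P301S and -0.80 in non-Tg. Each had an edgeR adjusted p under 0.05.

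Genes most like each member were found by Pearson correlation of log2 CPM over the 25 libraries, which share the split into astrocyte and neuron libraries. For Mt1 they were Pbxip1, Gfap, Fam107a, Rapgef3 and Mtss2, from r = 0.97 for Pbxip1 to 0.96 for Mtss2. For Mt2 they were Sparc, C4b, Rnf213, Osmr and Amotl1, from r = 0.98 for Sparc to 0.97 for Amotl1. Gfap, the intermediate filament gene on whose protein the astrocytes were sorted, averaged 943 ± 161 CPM in P301S and 200 ± 104 CPM in non-Tg astrocytes, and C4b, a complement gene, averaged 828 CPM and 155 CPM. For Mt3 they were Sec24c, Trappc10, Mras, Ncoa1 and Arfgap2, from r = 0.92 for Sec24c to 0.90 for Arfgap2.

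After the mean of each group was subtracted, so that only differences between libraries of 1 group remained, the coefficients were lower. For Mt1 the highest were Prss52 (r = 0.71), Dctd, Dzip1, Bcl6 and Fam107a. For Mt2 they included Sparc (0.73), Kcnj10, Rassf2 and Atp13a4, so that Fam107a for Mt1 and Sparc for Mt2 stood on both lists. For Mt3 they were Sec24c (0.85), Arhgef11, Nbas, Dpf3 and Gon4l, and P301S astrocyte library 3, which held the highest Mt3 level, also held the highest Sec24c level of its group, at 203 CPM against 55.4 to 114 CPM. Without P301S astrocytes 3 and 4, 0 of the 5 genes of either Mt3 list were among the 5 most like it, against 3 and 1 for Mt1 and 3 and 2 for Mt2, the list of log2 CPM given before that of deviations.

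Within groups of at least 6 libraries no correlation between members passed the threshold. The correlation of log2 CPM between Mt1 and Mt2 was r = 0.55 in non-Tg astrocytes (Spearman rho 0.49, exact permutation p = 0.231 and 0.356, 2-sided, n = 6), and r = 0.50 without the 2 libraries farthest from the median of Mt1. In P301S neurons it was r = 0.11 (rho 0.09, exact permutation p = 0.803 and 0.919, n = 6) and without 2 libraries 0.78, and in non-Tg neurons r = 0.40 (rho 0.33, permutation p = 0.324 and 0.428, n = 8) and without 2 libraries -0.04. Over the 9 pairs and groups computed, adjusted p was 0.911 for each Pearson r and 1.0 for each rho. The 6 correlations with Mt3 lay between r = -0.13 and 0.18. A minimum of 6 libraries was set, so no correlation was computed within the 5 P301S astrocyte libraries.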

How the data were processed

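Per the file headers, the deposited count of a gene is the number of reads uniquely aligned to its gene model, and the second column is an RPKM adjusted by a size factor, computed by the authors. Per the submitters' processing notes, GSNAP and GRCm38 were used; no source used here names the gene models or a version. The RPKM equals the counts times 1 factor per library and 1 per gene, so counts were used except to compare genes. The human transgene was not analysed here. Libraries differed by more than sampling noise (lowest chi-square per gene 1.84). Of 36528 Entrez identifiers, 5479 had no RefSeq match and stayed in the fits under their number.

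Genotype was tested within each cell type, and cell type and the difference of the genotype effect in 1 fit of 25 libraries, with the quasi-likelihood test of edgeR 4.0.16 (R 4.3.3; TMM, filterByExpr, robust), Benjamini-Hochberg adjustment over all genes tested and a threshold of 0.05. P-values measure the spread between libraries, which may be technical. The fits were tested on simulated data. A prior count of 2 was used for log2 CPM in correlations. Alternatives were RLE and the authors' size factors, DESeq2 1.42.0, voom in limma 3.58.1, other filters, covariates, left-out libraries and other fits. The metallothionein genes, the gene lists and the other genes' naming rule were chosen with earlier results of these data known. The rule takes up to 4 called genes of smallest p per list (1 where none is called), with Mt4, Mtf1, Slc30a1, Slc30a3 and Gfap, and the 5 genes most like each member. Not all genes that the rule takes are printed. Floors of 3 counts cover counting error only, as reads without molecular identifiers can be copies of 1 molecule. Promoter sequences are from RefSeq (GRCm38.p6), transcript models from GENCODE M21; positions were not taken from the files, which hold none.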

Additional observations from a re-analysis of the deposited data

Results flagged for a closer look

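In P301S astrocytes, Mt3 in library 3 stood at 67.1 CPM, far from the next library at 9.75 CPM, and the gap exceeded Dixon's 95% critical value for 5 samples. It was the only such library among 18 groups of values examined for the 3 genes, their summed level, the Mt2 to Mt1 ratio and the Mt3 share, and chance flags about 1 in 20 groups. The count behind it was 182, against 5 to 35 in the other P301S astrocyte libraries.

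The genotype effect on Serpina3n differed between cell types by 3.43 on the log2 scale (SE 0.49, edgeR adjusted p = 0.000739), astrocytes minus neurons. Its levels were 314 ± 71.3 CPM in P301S and 30.2 ± 22.4 CPM in non-Tg astrocytes, and 13.7 ± 3.98 CPM in P301S and 14.2 ± 4.53 CPM in non-Tg neurons. The call held under each of 36 alternatives, which refit the same libraries. Serpina3n is on a list chosen with earlier results of these data known, so its adjusted p is no independent test.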

How the results depend on the processing

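In astrocytes the log2 fold change of Mt1 stayed above 0 under 22 alternatives (1.17 to 2.09), as did that of Mt2 (1.62 to 2.37), and that of Mt3 under 21 (0.55 to 2.50). For Mt3 it was 0.68 without P301S astrocytes 3 and 4. Leaving out 1 library at a time gave 0.55 (without P301S astrocyte 3) to 2.50 (without P301S astrocyte 2). Genes called for genotype in astrocytes numbered 441 in DESeq2, 119 in limma voom, 561 with no filter, 15 with the sex marker covariate, 0 with genes detected as a covariate, 42 without P301S astrocytes 3 and 4, 1682 with 25 libraries in 1 fit, and 27 (without non-Tg astrocyte 3 or 6) to 136 (without P301S astrocyte 2) without 1 library, 108 without P301S astrocyte 1 and 29 without non-Tg astrocyte 1 or 2. List members called were 7 in DESeq2, 5 with no filter, 0 with genes detected and 15 in the fit of 25 libraries, and 2 to 3 without 1 library. In neurons the count was 49 in DESeq2, 41 in limma voom, 17 with no filter, 10 with a filter at 1 CPM, 7 with genes detected, 38 without non-Tg neurons 5 and 8, and 0 (without P301S neuron 4 or 5 or non-Tg neuron 2) to 23 (without non-Tg neuron 8) without 1 library. With no filter the neuron log2 fold changes were 1.27, 1.10 and -0.13 for Mt1, Mt2 and Mt3. For astrocytes against neurons in P301S, genes called were 3461 with genes detected and 4925 with that genotype alone, list members 27 with genes detected, and Mt1 5.06 without P301S astrocytes 3 and 4. For the difference between cell types, genes called were 425 in DESeq2, 10 in limma voom, 12 without non-Tg neurons 5 and 8, 266 without P301S astrocytes 3 and 4 and 9 (without P301S neuron 3) to 522 (without P301S astrocyte 1) without 1 library; list members were 3 in DESeq2, 3 without P301S astrocytes 3 and 4 and 1 to 3 without 1 library; and the difference for Mt1, not past the threshold, was -0.09 without P301S astrocytes 3 and 4. The Mt2 to Mt1 ratio by GENCODE lengths, chosen after seeing the data, was 2.95 in non-Tg astrocytes. Sums, shares, ranks, neuron percentages and genes most like a member without P301S astrocytes 3 and 4 were also added after seeing the data. The causes were not tested. The median of all genes in astrocytes was -0.15 in limma voom and -0.17 with no filter. By Spearman's rho 0 (Mt3, log2 CPM) to 4 of the 5 genes most like a member were the same. Lengths from RefSeq gene models were not run, since the table holds spans only. Neuron counts of 0 to 12 limit the members there. No paired analysis was possible because the labels carry no replicate numbers.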
